A study of Macaca mulatta with 8 samples.

Results

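HSPB1, CRYAB and HSPB8 are small heat shock proteins, and BAG3, BAG1, STUB1 and FLNC are a pair of co-chaperones, a ubiquitin ligase and a client that work with them. These 7 genes were followed among the 35432 genes counted in cultured microglia, the resident macrophages of the brain, and were found as the count rows that carry their symbols. The members were chosen by earlier results of the same counts, among them the difference between the conditions compared here, so that difference is described and not tested for them.

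The cells came from the frontal subcortical white matter of 4 adult rhesus macaques, of which R07110 and R12016 were male and R02046 and R14143 female, and each donor gave 1 library per condition. All cultures were kept for 8 days with the growth factor M-CSF, and all were exposed at day 7 to 10 µg/mL of uLPS, an ultrapure lipopolysaccharide that stimulates TLR4. In 1 culture of each donor, 5 µM MRS2578, an antagonist of the nucleotide receptor P2RY6, was added 1 h before uLPS, and RNA was taken 16 h after uLPS. MRS2578 is dissolved in DMSO, and the study's methods state that assays with MRS2578 had DMSO controls, although the labels of the libraries with uLPS alone do not name DMSO. Both conditions hold uLPS, and no unexposed culture and no culture with MRS2578 alone was analysed here. The comparison asks which transcripts differ when MRS2578 is present during the response to uLPS. The paper describes this antagonist as selective but not wholly specific, and effects outside P2RY6 were not tested here.

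Small heat shock proteins bind unfolding proteins without using ATP and hold them for refolding by HSP70. BAG3 is a nucleotide exchange factor of HSP70 that also binds HSPB8 and directs clients such as damaged filamin to autophagy, whereas BAG1 links HSP70 to the proteasome. STUB1, also known as CHIP, ubiquitinates clients held by HSP70 and HSP90. Several of these genes are known targets of HSF1, the transcription factor of the heat shock response, which binds heat shock elements made of alternating GAA and TTC units.

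Total counts ran from 9231109 to 32790348 per library, and 12131 genes passed the filter. The labels and the study's own gene table disagree on donor R02046. The normalised columns of that table followed the library with the same donor and condition for 6 of 8 libraries, and the other 2, both of R02046, followed the library of the opposite condition. The labels were kept, and the levels, fits and lists are also given with the 2 libraries of R02046 exchanged or without this donor. Of 16 microglial markers 15 were found, and they summed to 5170 to 6600 CPM (counts scaled to a common library size) with uLPS and 4640 to 5830 CPM with MRS2578. Of these, TMEM119 did not pass 0.316 CPM and CX3CR1 ran from 0.0508 to 2.21 CPM. Mural cell and fibroblast markers summed to 106 to 1270 CPM with uLPS and 228 to 566 CPM with MRS2578, with the highest value in R14143 with uLPS. Astrocyte markers summed to 89.2 to 206 CPM with uLPS and 113 to 191 CPM with MRS2578, endothelial markers to 208 to 332 CPM and 178 to 308 CPM, and lymphocyte markers to 0.518 CPM at most.

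The sequences upstream of HSPB1 and BAG3 are shown because these genes had the most similar levels across libraries of any pair of members, while only HSPB1 has a match to 2 alternating heat shock element units there. Each is the 300 bases before an annotated transcript start in Mmul_10, printed 5′ to 3′ on the strand of the gene, with matches to GAANNTTC or TTCNNGAA in capitals. Each motif is its own reverse complement, so both strands were covered, and overlapping matches were counted. The window of HSPB1 is chr3:44916787-44917086 (minus strand) and that of BAG3 is chr9:120132268-120132567 (plus strand), and neither includes exon bases of its gene.
HSPB1: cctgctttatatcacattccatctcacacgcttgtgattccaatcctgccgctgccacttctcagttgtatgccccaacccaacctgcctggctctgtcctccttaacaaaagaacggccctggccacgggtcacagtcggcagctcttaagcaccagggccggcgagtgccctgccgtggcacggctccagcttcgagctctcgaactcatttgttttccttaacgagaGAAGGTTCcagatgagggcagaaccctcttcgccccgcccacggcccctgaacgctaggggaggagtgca
BAG3: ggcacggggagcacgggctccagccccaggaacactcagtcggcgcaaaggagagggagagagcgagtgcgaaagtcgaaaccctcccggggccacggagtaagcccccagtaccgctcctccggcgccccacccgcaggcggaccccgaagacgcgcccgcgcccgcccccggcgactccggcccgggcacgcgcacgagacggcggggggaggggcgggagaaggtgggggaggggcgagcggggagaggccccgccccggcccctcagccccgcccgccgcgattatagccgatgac
The match of HSPB1 began at -70, counted from the transcript start, and neither of the 2 BAG3 windows had one.

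For CRYAB and HSPB8 the 30 bases around a match are shown, since the CRYAB match was the longest among the members and HSPB8 was the third small heat shock protein.
CRYAB: gacatcaccaTTCCAGAAGCTTCacaagac
HSPB8: catcacctccGAATATTCctgtgacaggag
The capitals in CRYAB are 3 alternating units that begin at -66 from the transcript start at base 105058810 of chromosome 14, in a window (chr14:105058811-105059110, minus strand) of which 165 bases lie within exons of other CRYAB transcripts. The HSPB8 match began at -234 in chr11:118920974-118921273 (plus strand). In all, 7 of the 15 windows of the members held either motif, and these belonged to 4 of 7 members, HSPB1, CRYAB, HSPB8 and BAG1. The windows of BAG3, FLNC and STUB1 held neither. Among 48158 windows of 20769 annotated genes, 11.5% held either motif and 0.347% held 3 alternating units. Counted by gene, the shares were 18.6% and 0.631%. A match is a description of letters and says nothing of binding.

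HSPB1 (ENSMMUG00000056744) encodes HSP27, a small heat shock protein that also stabilises actin filaments, and lies on the minus strand at chr3:44915073-44916786. In R07110 it was at 54.8 CPM with uLPS and at 1134 CPM in the presence of MRS2578. In R12016 it was at 69.7 CPM and 1825 CPM. In R14143 the values were close together, with 45.3 CPM and 64.8 CPM. The library of R02046 labelled uLPS was at 197 CPM, and the one labelled with MRS2578 was at 54.6 CPM. Thus, the MRS2578 libraries of R07110 and R12016 stood far above every other library, and the conditions overlapped because of R02046 and R14143. The level with MRS2578 was 20.7 times that with uLPS in R07110, 26.2 times in R12016, 1.43 times in R14143 and 0.277 times in R02046. Over 4 donors the mean was 91.7 ± 71.0 CPM (SD) with uLPS and 770 ± 867 CPM with MRS2578. With R02046 exchanged, the spread in the uLPS group was far smaller, at 56.1 ± 10.1 CPM against 805 ± 830 CPM. In these bulk libraries, fewer cells of a type and less RNA per cell cannot be told apart.

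CRYAB (ENSMMUG00000022133), alpha B-crystallin, is the small heat shock protein that co-assembles with HSP27 and binds desmin and other filaments. It lies on the minus strand at chr14:105055681-105070284 and overlaps HSPB2 and C14H11orf52 on the other strand. It measured 7.18 CPM in R07110 with uLPS alone and 51.2 CPM in the presence of MRS2578. In R12016 it was at 7.34 CPM and 88.8 CPM. In R14143 it was at 5.94 CPM and 5.64 CPM, so the small difference of HSPB1 in this donor had no counterpart in CRYAB. In R02046 it was at 12.5 CPM in the library labelled uLPS and 2.34 CPM in the other. The ratio between the conditions was thus 7.13 in R07110, 12.1 in R12016, 0.950 in R14143 and 0.187 in R02046. The mean was 8.24 ± 2.90 CPM with uLPS and 37.0 ± 41.1 CPM with MRS2578, and with R02046 exchanged it was 5.70 ± 2.33 CPM and 39.5 ± 38.5 CPM. HSPB2 counts, which could share reads with CRYAB if strand was not used, were 0 in every library but 1, which had 2. These counts do not show how shared reads were assigned, and C14H11orf52 was not examined.

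CRYAB is also a gene of oligodendrocytes, which are common in white matter. The 10 of 12 oligodendrocyte markers that were found summed to between 239 and 407 CPM with uLPS and 224 and 304 CPM with MRS2578. Most of this was CNP, at 158 to 343 CPM, and MBP. The defining myelin genes MOG, MOBP, OPALIN and ERMN were at 0.508 CPM or lower in every library. In R12016 the marker sum was 407 CPM with uLPS and 304 CPM with MRS2578, while CRYAB was higher with MRS2578. The part of oligodendrocytes in the CRYAB values was not tested.

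HSPB8 (ENSMMUG00000021232), the small heat shock protein that binds BAG3, lies at chr11:118921274-118962993 and was barely detected. Its counts with uLPS and with MRS2578 were 16 and 43 in R07110. They were 7 and 12 in R12016 and 16 and 17 in R14143. In R02046 they were 2, with an exact 95% Poisson interval of 0.242 to 7.22, and 3, with an interval of 0.619 to 8.77. Both are within the 3 counts that a count of 0 allows, so no ratio is given for this donor. The ratio of CPM was 3.57 in R07110, 1.70 in R12016 and 1.17 in R14143. In R12016 the interval of 2.81 to 14.4 counts with uLPS overlapped that of 6.20 to 21.0 counts with MRS2578. The intervals of R14143 overlapped as well, at 9.15 to 26.0 and 9.90 to 27.2 counts. In R07110 the interval of 9.15 to 26.0 counts lay below that of 31.1 to 57.9 counts. Such intervals cover counting error only.

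BAG3 (ENSMMUG00000000798) lies on the plus strand at chr9:120132568-120159388. In 3 donors its level with uLPS was nearly the same, at 54.6 CPM in R07110, 49.6 CPM in R12016 and 52.4 CPM in R14143. In the presence of MRS2578, these donors were at 691 CPM, 1269 CPM and 93.3 CPM. The R02046 library labelled uLPS was at 212 CPM and the one labelled with MRS2578 at 59.4 CPM, which is close to the uLPS libraries of the other donors. With R02046 exchanged, the uLPS libraries were at 54.0 ± 4.17 CPM and the lowest MRS2578 library, R14143, was above all of them. BAG3 was then the 1 member of 7 whose groups did not overlap, beside 1.41% of all genes tested with MRS2578 above uLPS. With the deposited labels 0 of 7 members had separate groups, beside 0.668% of genes.

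FLNC (ENSMMUG00000006296) encodes filamin C, an actin crosslinker best known from muscle, and lies at chr3:155079128-155108184. It measured 4.93 CPM in R07110 with uLPS alone and 30.5 CPM in the presence of MRS2578. In R12016 it was at 7.65 CPM and 63.8 CPM. In R14143 the order was the opposite, with 29.6 CPM and 14.2 CPM, and in R02046 it was at 12.05 CPM and 10.2 CPM. FLNC was therefore the 1 member that differed by over 2 times in opposite directions between donors whose labels are not in conflict. Its mean was 13.6 ± 11.1 CPM with uLPS and 29.7 ± 24.4 CPM with MRS2578, and with R02046 exchanged 13.1 ± 11.2 CPM and 30.1 ± 23.9 CPM.

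**Figure D1:**
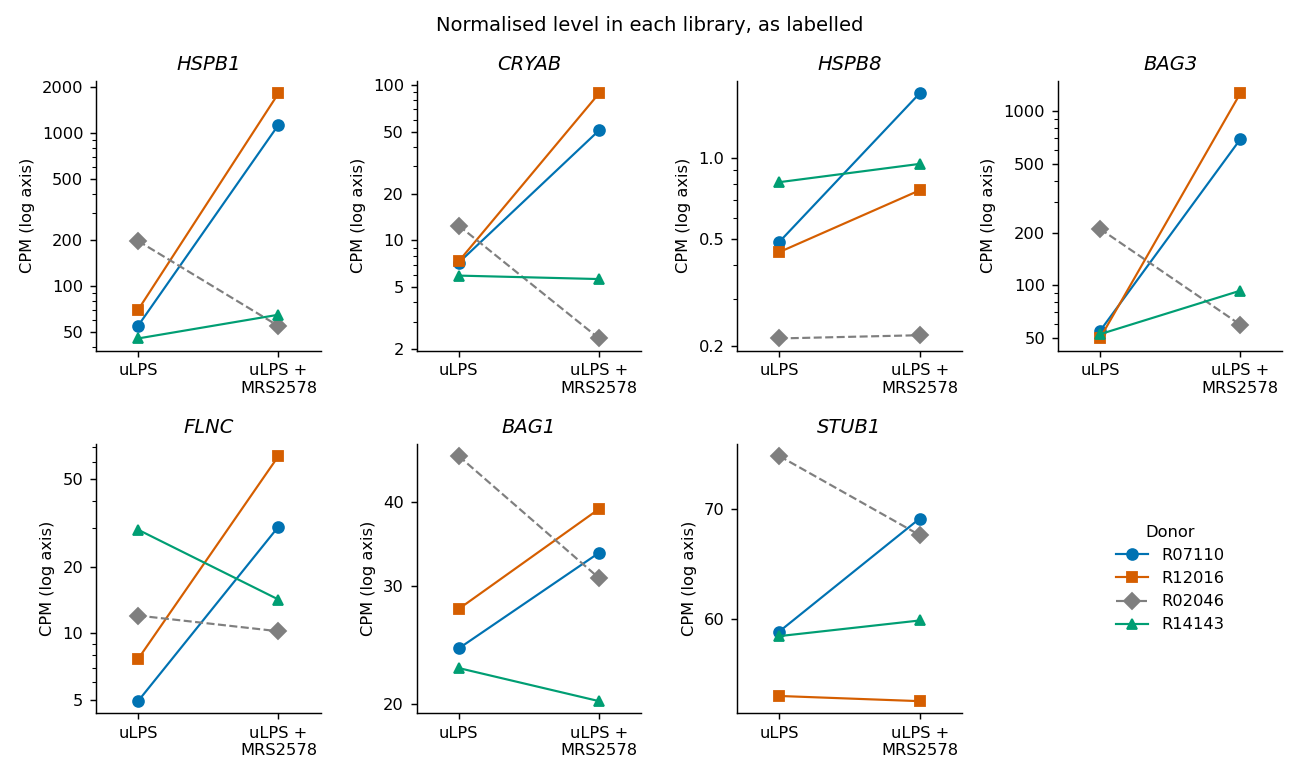
Level of each member in CPM (log axis, its own range in each panel) in the uLPS and the uLPS + MRS2578 library of each donor, joined by a line per donor and dashed for R02046. HSPB1, CRYAB, BAG3 and FLNC climb steeply in R07110 and R12016, R14143 is nearly flat for CRYAB and falls for FLNC, and R02046 goes down for HSPB1, CRYAB and BAG3.

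The summed markers of mural cells and fibroblasts, cells that can express filamin C, moved with FLNC in R07110, R12016 and R14143. All 13 were found. Their sum was 1270 CPM in R14143 with uLPS and 463 CPM with MRS2578, and 11 of the 13 were lower with MRS2578. COL1A1 alone, a fibrillar collagen, was at 511 CPM and 178 CPM there. In R07110 the sum was 162 CPM and 252 CPM, and in R12016 it was 106 CPM and 228 CPM. The sum thus differed 1.55 times in R07110 and 2.14 times in R12016, and FLNC differed 6.19 times and 8.34 times. In R02046 the sum was 411 CPM and 566 CPM while FLNC was at nearly equal levels. The part of these cells in the FLNC values was not tested.

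**Figure D2:**
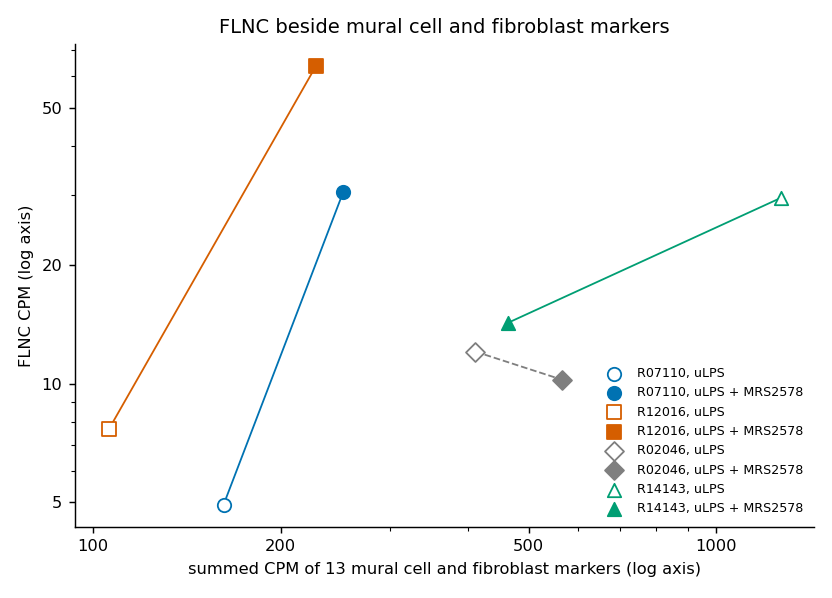
FLNC in CPM against the summed CPM of 13 mural cell and fibroblast markers (both log axes) in 8 libraries, with open symbols for uLPS, filled symbols for uLPS + MRS2578 and a line joining the libraries of a donor. The R14143 library with uLPS lies farthest right, at a marker sum of 1270 CPM, and the R12016 library with MRS2578 lies highest, at 63.8 CPM of FLNC with a marker sum of 228 CPM.

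BAG1 (ENSMMUG00000020148, chr15:50627492-50637998) and STUB1 (ENSMMUG00000049219, chr20:709197-713265) differed little. BAG1 was at 24.2 CPM and 33.6 CPM in R07110 and at 27.7 CPM and 39.0 CPM in R12016. In R14143 it was at 22.6 CPM and 20.2 CPM, and in R02046 at 46.8 CPM and 30.8 CPM. Its means of 30.3 ± 11.2 CPM and 30.9 ± 7.93 CPM (n = 4 each) were nearly equal as labelled, but with R02046 exchanged they were 26.3 ± 3.66 CPM and 34.9 ± 11.2 CPM. STUB1 was the steadiest member, between 53.8 and 75.4 CPM with uLPS and between 53.4 and 69.1 CPM with MRS2578. Its means were 61.7 ± 9.44 CPM and 62.5 ± 7.23 CPM, or 59.7 ± 5.68 CPM and 64.4 ± 9.72 CPM with R02046 exchanged. STUB1 overlaps JMJD8 and LOC106994901 on the opposite strand, and reads of these genes cannot be told apart if strand was not used in counting.

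Within donors, the order of the members was the same in R07110 and R12016. On the log2 CPM scale, with a prior count of 2, the difference between MRS2578 and uLPS in R07110 was 4.37 for HSPB1, 3.66 for BAG3, 2.82 for CRYAB and 2.60 for FLNC. It was 1.63 for HSPB8, 0.47 for BAG1 and 0.23 for STUB1. In R12016 the differences were 4.71, 4.68, 3.58 and 3.04 for HSPB1, BAG3, CRYAB and FLNC, and 0.64, 0.49 and -0.01 for HSPB8, BAG1 and STUB1. HSPB1, BAG3, CRYAB and FLNC thus differed by 2.60 or more in both donors, and BAG1 and STUB1 by 0.49 or less. Among 12131 genes, HSPB1 had the 8th largest rise of R07110 and the 12th of R12016, and BAG3 was 13th in both.

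In R14143, the differences were small by comparison. That of BAG3 was 0.83, that of HSPB1 0.51 and that of HSPB8 0.20, while CRYAB was at -0.07, BAG1 at -0.16 and FLNC at -1.05. BAG3 ranked 296th and HSPB1 916th from the largest rise in this donor, and FLNC ranked 497th from the largest fall. HSPB1, HSPB8 and BAG3 were higher with MRS2578 in R07110, R12016 and R14143, which is 3 of 7 members, beside 17% of all genes tested. For HSPB8 this rests on 16 and 17 counts in R14143 and 7 and 12 in R12016, within counting error in both. No member was lower in these 3 donors, beside 19.8% of genes. In R02046 as labelled, the differences were -2.36 for CRYAB, -1.85 for HSPB1 and -1.83 for BAG3, and -0.60 for BAG1, -0.23 for FLNC and -0.16 for STUB1. Exchanging these libraries turns each of these signs.

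**Figure D3:**
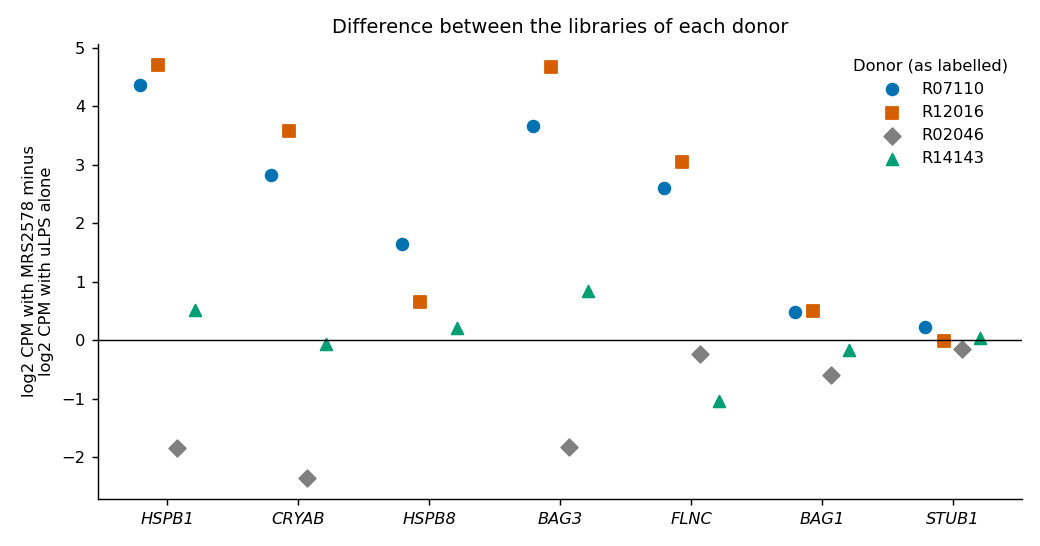
Difference in log2 CPM between the uLPS + MRS2578 and the uLPS library of each donor, as labelled, for the 7 members, with a line at 0 and HSPB8 left out for R02046. R07110 and R12016 lie above 2.5 for HSPB1, CRYAB, BAG3 and FLNC, R14143 lies between -1.05 for FLNC and 0.83 for BAG3, and STUB1 lies near 0 in every donor.

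Over all donors, edgeR's quasi-likelihood fit with donor as a block gave fold changes whose errors were set by this spread. With the deposited labels, the log2 fold change was 2.11 (SE 1.35) for HSPB1, 2.00 (SE 1.19) for BAG3 and 1.28 (SE 1.01) for CRYAB. It was 1.13 (SE 0.77) for FLNC and 0.98 (SE 0.45) for HSPB8. For BAG1 it was 0.06 (SE 0.20) and for STUB1 0.02 (SE 0.10). With R02046 exchanged, HSPB1 was at 2.92 (SE 0.72), BAG3 at 2.76 (SE 0.60) and CRYAB at 2.34 (SE 0.52), while FLNC was at 1.26 (SE 0.67), HSPB8 at 1.02 (SE 0.44), BAG1 at 0.36 (SE 0.14) and STUB1 at 0.10 (SE 0.09). Without R02046 the values were 3.39 (SE 0.94) for HSPB1, 3.14 (SE 0.78) for BAG3 and 2.30 (SE 0.68) for CRYAB, and 1.61 (SE 0.85), 1.07 (SE 0.50), 0.27 (SE 0.17) and 0.08 (SE 0.10) for FLNC, HSPB8, BAG1 and STUB1. The fitted values were above 0 under each assignment, but those of BAG1 and STUB1 as labelled lay within their errors of 0. These fits share R07110, R12016 and R14143, so a shared direction is no independent support. The errors of HSPB1, BAG3 and CRYAB were smallest with R02046 exchanged. As labelled, R02046 had the lowest difference of each of these genes. Its exchange therefore narrows their spread and does not show which assignment is right. The size rested on R07110 and R12016. With the deposited labels, the fold change of HSPB1 was 4.31 over 4 donors, 1.87 without R07110 and 1.83 without R12016. That of BAG3 was 4.00, 2.11 and 1.86, that of CRYAB 2.43, 1.34 and 1.39, and that of FLNC 2.19, 1.40 and 1.34. HSPB8 went from 1.97 to 1.31 without R07110. Without R14143 these were higher, at 8.36 for HSPB1, 6.45 for BAG3, 3.54 for CRYAB and 3.76 for FLNC. With R02046 exchanged, the fold change of HSPB1 was 7.59 over 4 donors, 4.90 without R07110, 4.73 without R12016 and 13.1 without R14143, and that of BAG3 was 6.79, 5.17, 4.34 and 10.7.

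At an adjusted p of 0.05, 0 of 7 members were called with the deposited labels, beside 0% of 12131 genes. With R02046 exchanged 0 of 7 were called, beside 0.618% of genes, and without R02046 0 of 7, beside 0% of 12295 genes. With the deposited labels, 624 genes had an unadjusted p below 0.05, and the likelihood ratio test called 5 genes and DESeq2's Wald test 1. With R02046 exchanged, the calls turned on R14143. Without this donor, 5 of the 6 members tested were called, namely HSPB1, CRYAB, BAG3, FLNC and BAG1, beside 3.35% of genes called higher. DESeq2's Wald test called HSPB1, CRYAB and BAG3, beside 1.29% of genes called higher. These counts are given as a description, since the members were proposed with this contrast known.

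**Figure D4:**
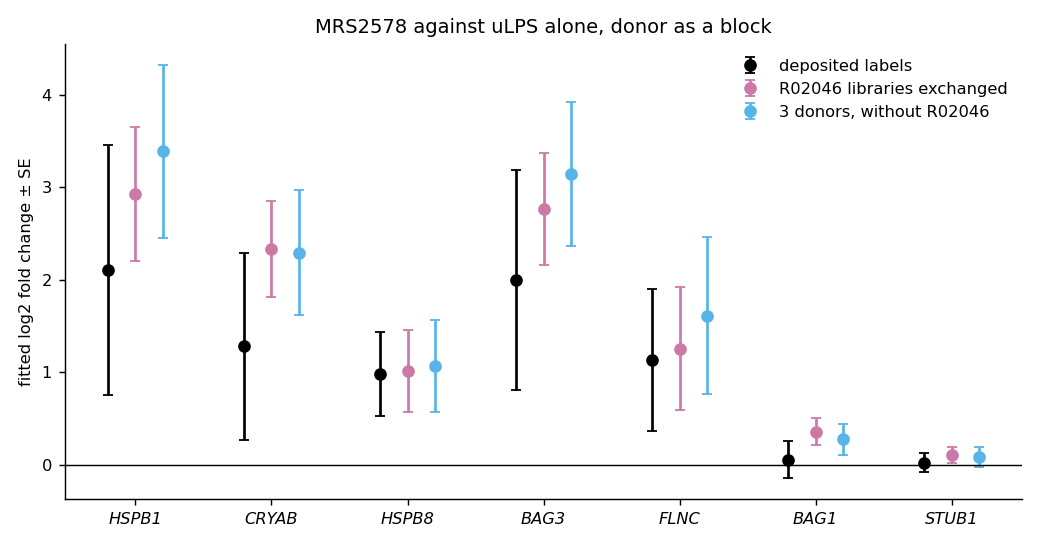
Fitted log2 fold change of MRS2578 against uLPS with its standard error for each member, with the deposited labels, with the libraries of R02046 exchanged and with 3 donors. HSPB1, CRYAB and BAG3 lie above 1 under each assignment with the widest bars for the deposited labels, and BAG1 and STUB1 lie between 0 and 0.36.

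BAG3 and BAG1 compete for HSP70, and their ratio is often followed as a measure of the balance between the autophagic and the proteasomal route. There were 2.26 BAG3 counts per BAG1 count in R07110 with uLPS and 20.6 with MRS2578. In R12016 the ratio was 1.79 and 32.5, and in R14143 it was 2.32 and 4.62. In R02046 it was 4.52 in the library labelled uLPS and 1.93 in the other. This is a ratio of reads and not of molecules or proteins, and it was higher with MRS2578 in each donor but R02046. It follows BAG3, since BAG1 varied far less.

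**Figure D5:**
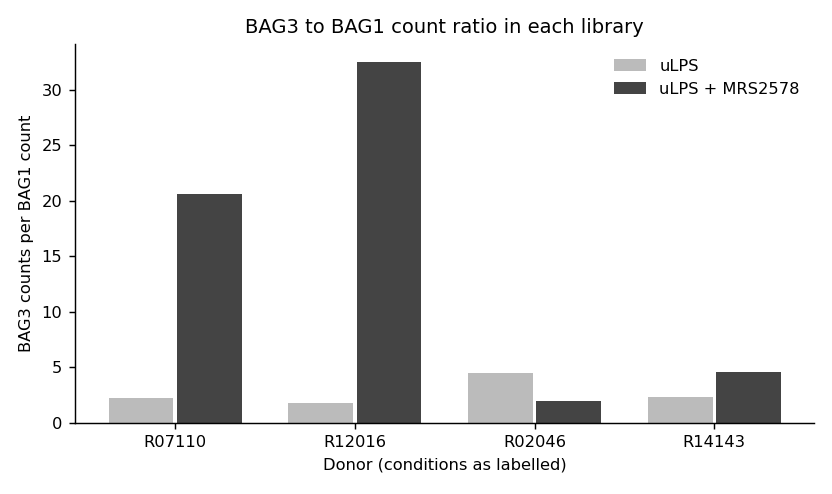
BAG3 counts per BAG1 count in each library, in pairs of bars per donor as labelled, with 1 library per bar and therefore no error. The ratio is 20.6 and 32.5 with MRS2578 in R07110 and R12016, and between 1.79 and 4.62 in the other 6 libraries.

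Among the small heat shock proteins, HSPB1 outnumbered CRYAB in every library. There were 7.63 HSPB1 counts per CRYAB count in R07110 with uLPS and 22.1 with MRS2578, 9.50 and 20.6 in R12016 and 7.62 and 11.5 in R14143. In R02046 this ratio was 15.8 in the library labelled uLPS and 23.3 in the other, so it was higher with MRS2578 in 4 of 4 donors as labelled, and in 3 of 4 with R02046 exchanged. HSPB1, CRYAB and HSPB8 together took 0.124% of all counts in R07110 and 0.196% in R12016 with MRS2578. In each of the other 6 libraries, they took between 0.00510% and 0.0213%.

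Levels between genes were compared per kilobase of 1 annotated transcript each. With uLPS, HSPB1 was highest at 103 ± 79.6 CPM per kb, followed by BAG3 at 38.2 ± 33.1 and STUB1 at 31.6 ± 4.83 CPM per kb. BAG1 was at 20.2 ± 7.48, CRYAB at 11.8 ± 4.14, FLNC at 1.47 ± 1.2 and HSPB8 at 0.298 ± 0.150 CPM per kb (SD, n = 4). The ranges of neighbours in this order overlapped, except for CRYAB and FLNC and for FLNC and HSPB8. Within libraries, each gene was above the next in 4 of 4, except that BAG3 was above STUB1 in 1 of 4, that of R02046. With R02046 exchanged, STUB1 was above BAG3, at 30.6 ± 2.91 and 22.4 ± 1.73 CPM per kb, and without R02046 they were at 29.3 ± 1.46 and 21.7 ± 1.05 CPM per kb. With MRS2578, CRYAB moved to the third place at 52.8 ± 58.7 CPM per kb, above STUB1 in 2 of 4 libraries. HSPB1 and BAG3 were first and second with MRS2578, at 863 ± 972 and 219 ± 238 CPM per kb, under each assignment of R02046 and without this donor.

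Over the 8 libraries, with no use of the labels, Pearson's r of log2 CPM was 0.987 between HSPB1 and BAG3, 0.958 between HSPB1 and CRYAB and 0.936 between CRYAB and BAG3. It was 0.756 between FLNC and BAG3. STUB1 had an r between -0.26 and 0.47 with the other members. The libraries of a donor share that donor. Without the MRS2578 libraries of R07110 and R12016, r over the other 6 libraries was 0.913 between HSPB1 and BAG3, but 0.666 between HSPB1 and CRYAB, 0.543 between CRYAB and BAG3 and 0.128 between FLNC and BAG3. That between STUB1 and BAG3 was then 0.800.

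Among genes with a symbol and at least 1 CPM, those most like HSPB1 were DNAJA4 (r = 0.989), HSPD1 (r = 0.988) and BAG3 (r = 0.987). Those most like BAG3 were DNAJB1 (r = 0.994), HSPH1 (r = 0.994) and HSPD1 (r = 0.993), which encode an HSP40 co-chaperone, an HSP110 exchange factor and the mitochondrial HSP60. For CRYAB these were ALDOA, a glycolytic enzyme, with r = 0.970, RGCC with r = 0.969 and NRAP with r = 0.965. FLNC was most like FAM219A, YIPF3 and CRIM1, at 0.963 to 0.977. BAG1 was most like RPL35A, a protein of the large ribosomal subunit, with r = 0.985, PFDN6, a subunit of the chaperone prefoldin, with r = 0.981, and ENY2. STUB1 was most like DDX27, DDOST and METTL13, at 0.959 to 0.963, and HSPB8 was most like SLC25A29, with r = 0.952. Each of these is picked as the highest of 10579 or 10580 r values over only 8 libraries, so a high r alone says little. That of HSPB8 rests on 2 to 43 counts per library. Apart from that of HSPB1 and BAG3, given above, none was computed without the MRS2578 libraries of R07110 and R12016.

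Of the other small heat shock proteins, 6 of 8 were matched by symbol and 1 passed the filter. HSPB3, HSPB7 and ODF1 had 0 counts in every library, and HSPB6 had at most 11 counts and did not pass the filter. HSPB11, which is better known as the ciliary protein IFT25, had a log2 fold change of 0.01 (SE 0.20). Of 4 other BAG genes 3 were tested and 0 were called. BAG5 had a log2 fold change of 0.15 (SE 0.10), BAG4 of 0.05 (SE 0.11) and BAG6 of -0.03 (SE 0.09), and their differences within donors ran from -0.09 to 0.27. With R02046 exchanged, their median was -0.01, and 1 of 3 was above 0, beside 50.2% of all genes tested.

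Of 17 partners and clients of the BAG3 route, 14 were tested and 0 were called with the deposited labels, and 0 with R02046 exchanged. Of the 14, 8 had a log2 fold change above 0, beside 47.9% of all genes tested, and the median was 0.10 beside -0.01 over all genes. With R02046 exchanged, 9 were above 0, beside 50.2% of genes, and the median was 0.29. DNAJB1, which delivers clients to HSP70, had the largest value at 1.75 (SE 0.87), with differences of 3.25 in R07110, 3.81 in R12016, 0.71 in R14143 and -1.01 in R02046. HSPA8, the constitutive HSP70, was at 0.56 (SE 0.22). The lowest values were those of WWTR1, a transcriptional coactivator, at -0.41 (SE 0.59), and HDAC6, a deacetylase that binds ubiquitinated proteins, at -0.20 (SE 0.14). The median difference of this list was 0.48 in R07110, 0.67 in R12016, -0.14 in R14143 and -0.16 in R02046.

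Of 21 genes in the list of HSF1 and its classic targets, 18 were tested and 0 were called under either assignment of R02046. Of the 18, 17 had a log2 fold change above 0 with the deposited labels, beside 47.9% of all genes tested. Their median was 0.57 beside -0.01 over all genes. In R07110, R12016 and R14143 alike, 12 of the 18 were higher with MRS2578, beside 17% of genes. With R02046 exchanged, 17 were above 0, beside 50.2% of genes, and the median was 0.68. The median difference was 0.93 in R07110, 1.33 in R12016, 0.26 in R14143 and -0.20 in R02046, in the same order of donors as for HSPB1 and BAG3. SERPINH1, the collagen chaperone HSP47, was at 2.14 (SE 1.98). Its differences were 4.80 in R07110, 6.82 in R12016, -1.17 in R14143 and -1.28 in R02046. COL1A1 differed in the same direction as SERPINH1 in R07110, R12016 and R14143. In R02046 their directions were opposite, since COL1A1 measured 106 CPM in the library labelled uLPS against 170 CPM in the other. The part of mural cells and fibroblasts in the SERPINH1 values was not tested. HSF1 itself was at -0.18 (SE 0.09), and HSPE1, the partner of HSP60, at 0.05 (SE 0.11). Some genes stand in more than 1 list, as DNAJB1 and HSPA8 do.

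Of 9 partners of STUB1, 9 were tested and 0 were called. Of these, 4 had a log2 fold change above 0, beside 47.9% of all genes tested, and the median was -0.01. With R02046 exchanged, 6 were above 0, beside 50.2% of genes, and the median was 0.02. HSP90AA1, the inducible HSP90, was at 0.88 (SE 0.47). The ubiquitin-conjugating enzyme UBE2D2 was at -0.19 (SE 0.11), and PSMD4, a ubiquitin receptor of the proteasome, at -0.12 (SE 0.10). The differences of the 6 ubiquitin-conjugating genes and PSMD4 ran from -0.47 to 0.39 over the donors, both in UBE2W, and those of STUB1 from -0.16 to 0.23.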

How the data were processed

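RNA was measured in 8 libraries of primary microglia, and the authors deposited whole-number counts per Ensembl gene, without normalization. Their paper names fastp, STAR, SAMtools and HTSeq on Mmul_10, whereas the submitters' processing notes list Trimmomatic (version 0.30), TopHat2 (version 2.0.14), SAMtools (version 1.3) and HTSeq (version 0.6.1p1). The annotation release and whether the counting used strand are not given in the sources used here. Genes that overlap on opposite strands, and near-identical copies, therefore have uncertain counts.

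Conditions and donors came from the sample labels. The members and gene lists were chosen with earlier results of these data known. Genes were kept by filterByExpr (minimum count 10), scaled by TMM and fitted with edgeR (version 4.0.16) in R (version 4.3.3), using the quasi-likelihood F-test with a donor term, and p-values were adjusted by the Benjamini-Hochberg method at 0.05. The SE was derived from the F statistic. Levels are CPM with TMM scaling. Limma (version 3.58.1) and DESeq2 (version 1.42.0) were also used. The donor is a block because both libraries come from 1 animal, and their deviations from the condition means correlated at 0.458 to 0.602. No library was a duplicate of another. The fitting steps were also run on simulated data without donor differences, in which a changed gene changed alike in every donor. These data differ from that setting, so the run does not show how the fit performs on them. A count of 3, the limit that a count of 0 allows, is 0.0915 to 0.325 CPM. P-values measure the spread between 4 animals.

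The members and the 2 genes with the largest rise and the 2 with the largest fall of each list were named, with the 3 genes most like each member. Positions, transcript lengths and upstream sequence came from the NCBI annotation and genome of Mmul_10, the build of the counts. Protein sequences were not used here. The level of 1 marker gene is not reported here.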

Additional observations from a re-analysis of the deposited data

Results flagged for a closer look

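BAG3 in the R02046 library labelled uLPS, at 212 CPM, stood apart from the other 3 uLPS libraries, which lay between 49.6 and 54.6 CPM. Its gap to the nearest library, as a share of the range on the log2 scale, passed Dixon's 95% limit for 4 samples. This was 1 of 21 groups examined for the members, and chance flags about 1 group in 20. The same library was also the highest of the uLPS libraries for HSPB1, CRYAB, BAG1 and STUB1, and it is 1 of the 2 libraries whose condition differs between the labels and the study's gene table. Whether the 2 libraries were exchanged was not tested here.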

How the results depend on the processing

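Members' fold changes moved by less than 1 SD of the donor differences in 123 alternatives, but this SD is 3.16 on the log2 scale for HSPB1 and 2.93 for BAG3, so it is a wide measure. With the deposited labels, leaving out R07110 or R12016 lowered the folds of HSPB1, BAG3, CRYAB and FLNC by over 1.5 times. With R02046 exchanged, some fell less. That of BAG3 went from 6.79 to 5.17 without R07110, and that of CRYAB from 5.06 to 4.155 without R07110 and 3.61 without R12016. Signs turned with the deposited labels only, for BAG1 at -0.09 without R07110 and -0.08 without R12016, and for STUB1 at -0.05 without R07110. With the deposited labels, 0 genes were called in the main fit, 5 with the likelihood ratio test and 1 with DESeq2's Wald test. Without the replicate block 0 were called, and 250 of 12131 genes had an unadjusted p below 0.05, fewer than chance would give. With the libraries of R02046 exchanged, 75 genes were called, and with fits added after the data were seen 39 by edgeR's earlier quasi-likelihood estimation, 583 by DESeq2's Wald test and 0 without the replicate block. Leaving out 1 donor gave 0 to 918 genes, and the 918 came with R02046 exchanged and R14143 left out, against 0 without R07110 and 5 without R12016. DESeq2 with the exchange called 3 of 7 members (HSPB1, CRYAB and BAG3, beside 1.29% of genes called higher), 8 of the HSF1 list, 2 of the BAG3 partners and 1 of the STUB1 partners. Leaving out 1 donor gave 0 to 11, 0 to 4 and 0 to 1 calls in these lists, the highest each time with R02046 exchanged and R14143 left out. In that fit 918 of 12128 genes were called, and 3.35% of genes were called higher. The 11 calls among 18 genes of the HSF1 list and the 1 among 9 STUB1 partners were higher. Of the 4 calls among 14 BAG3 partners, 3 were higher and 1 was lower. HSPB8 did not pass the filter without R14143 or at 10 counts in every library. The replicate block changed no other call. In HSPB8, depth limits any statement on R02046.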
